A study of Mus musculus with 6 samples.

Results

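The 9 genes described here control how much glucose a hepatocyte makes and how much it uses: G6pc, Pck1, Fbp1, Pcx, Slc37a4, Tat, Ppargc1a, Mlxipl and Pklr. They were chosen by name, with earlier results of these data known, from the 16623 genes measured in 11610 liver cells. The cells came from 3 WT mice and 3 SIRT7-/- mice (SIRT7 KO), which are deficient in the histone deacetylase SIRT7. All mice were 5 to 6 months old. Livers were perfused with collagenase, and hepatocytes and other liver cells were mixed in equal numbers before loading, so the share of hepatocytes in a library is no measure of the liver.

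A hepatocyte makes glucose from lactate, glycerol and amino acids when food is short, and breaks glucose down and turns it into fat after a meal. Glucagon, glucocorticoids and the coactivator PGC-1alpha raise the genes of glucose production, whereas insulin lowers them, and the glucose sensor ChREBP raises genes of glucose breakdown and fat synthesis. In the intact lobule, glucose production is ascribed mainly to hepatocytes near the portal vein and glucose use to those near the central vein.

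Values are UMIs (counted RNA molecules) per 10000 UMIs of a cell (CP10K), averaged over the cells of a mouse, so that each mouse gives 1 value. Libraries held 552 to 5609 cells and 2511947 to 11069411 UMIs. SIRT7 KO mouse 3 stood apart in depth, with a median of 3875 UMIs per cell against 1630 to 2199 in the other 5 mice. Over all cells, Sirt7 was at 0.718, 0.512 and 0.546 CP10K in WT mice 1 to 3 and at 0.10, 0.0814 and 0.139 CP10K in SIRT7 KO mice 1 to 3, so the groups did not overlap and followed their labels. A total of 13 cell barcodes occurred in more than 1 mouse, in 26 cells.

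Hepatocyte-like cells were 2949 of the 11610 cells, with 100 to 919 per mouse. They formed 2 clusters, both with 14 of 14 hepatocyte markers detected, although none of these markers was among the 10 leading genes of either cluster by fold. The clusters differed in the nuclear RNA Malat1, which was at 303 to 539 CP10K in the 1190 Malat1-high cells of the 6 mice and at 0.398 to 20.3 CP10K in the 1759 Malat1-low cells. The Malat1-high share of hepatocyte-like cells was 40.0%, 19.9% and 46.0% in the WT mice and 43.5%, 17.9% and 80.9% in the SIRT7 KO mice. Because this share moved from mouse to mouse and most of the 9 genes were higher in the Malat1-high cells, genotype is given over all hepatocyte-like cells and within each cluster. Whether the Malat1-low barcodes are intact hepatocytes, damaged cells or droplets holding hepatocyte RNA cannot be told apart here, so their values describe these barcodes only.

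For Pck1, G6pc and Pklr, a promoter held a motif known for a family of factors that acts on that gene. That of Mlxipl held a short and common E-box. The stretches are shown to describe these promoters. Windows of 30 bases come from RefSeq promoters of GRCm38.p6, plus strand, and capitals mark the motif, searched on both strands in the 250 bases before each start. Of 14 promoters listed for the 9 genes, 1 promoter of Pck1, the gene of the enzyme that commits carbon to glucose, held TTACGTCA, a cAMP response element of the kind CREB binds. It lay 93 to 86 bases before the start, at chr2:173152969-173152998, and the motif occurs in 147 of 32851 promoters (0.447%).
Pck1: aggcctgccccTTACGTCAgaggcgagcct
The G6pc promoter held TTACGTAA, a palindrome of the kind bound by C/EBP and PAR bZIP factors, at chr11:101367543-101367572, 162 to 155 bases before the start (37 promoters, 0.113%).
G6pc: gttttgctattTTACGTAAatcaccctgaa
The Pklr promoter held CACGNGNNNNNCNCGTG, the carbohydrate response element form that ChREBP and Mlx bind, at chr3:89136447-89136476, 170 to 154 bases before the start (13 promoters, 0.0396%).
Pklr: ggacgcCACGGGGCACTCCCGTGgttcctg
The promoter of Mlxipl, which encodes ChREBP itself, held the E-box CACGTG at chr5:135089780-135089809, 98 to 93 bases before the start. This shorter motif occurs in 1978 promoters (6.02%), among them that of Pcx.
Mlxipl: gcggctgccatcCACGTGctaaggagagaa
The full palindrome TGACGTCA was in none of the 14 promoters and in 1.55% of all promoters. A match of letters describes the window and is not evidence of binding in these livers.

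Each of the 9 genes had its highest level, mouse by mouse, in the hepatocyte-like cells. This held in 243 of 243 comparisons of a gene, a class and a mouse over macrophage-like, T-cell-like, dendritic-like, endothelial-like and plasma-cell-like cells. The dendritic-like name is the least certain, since its 10 leading genes held 2 markers of conventional and 2 of plasmacytoid dendritic cells. G6pc, the catalytic subunit of glucose-6-phosphatase, had a median over mice of 15.8 CP10K in hepatocyte-like cells, followed by 1.52 in endothelial-like, 0.806 in T-cell-like, 0.605 in dendritic-like, 0.311 in macrophage-like and 0.204 in plasma-cell-like cells. Neighbours in that order overlapped over mice from the endothelial-like cells downwards, while the lowest hepatocyte-like value was 7.62 CP10K and the highest endothelial-like value 1.93 CP10K.

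Pck1, phosphoenolpyruvate carboxykinase, ran from 12.8 to 40.9 CP10K in hepatocyte-like cells and from 0.248 to 6.84 CP10K over the other 5 classes. For Mlxipl the hepatocyte-like range was 2.84 to 12.9 CP10K, and the highest value elsewhere was 0.629 CP10K, in endothelial-like cells. Both genes were therefore separated from every other class without overlap. Slc37a4, the transporter that carries glucose 6-phosphate into the endoplasmic reticulum, and Pcx, pyruvate carboxylase, were not. For Slc37a4 the lowest hepatocyte-like value was 0.134 CP10K and the highest dendritic-like value 0.426 CP10K. Ppargc1a, which encodes PGC-1alpha, had 159 UMIs in all hepatocyte-like cells and none in 4 of 5 endothelial-like and 3 of 4 plasma-cell-like sets. A count of 0 there allows from 0.0508 CP10K (plasma-cell-like cells of SIRT7 KO mouse 2) up to 0.356 CP10K (endothelial-like cells of the same mouse), as 3 counts of the total and for counting error only.

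Hepatocyte RNA was found in every class. The 14 hepatocyte markers were, at their median, 2.88 to 8.63 times higher in a hepatocyte-like cluster than in the non-hepatocyte cells of the same mouse. Against the same other cells, G6pc was 20.6 to 95.4 times and Mlxipl 59.5 to 195 times higher in Malat1-high cells. In Malat1-low cells the ratios were 1.78 to 5.21 for G6pc and 2.78 to 5.7 for Mlxipl, in the range of the markers or under it. How much of the levels outside hepatocytes is free hepatocyte RNA was not tested.

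**Figure D1:**
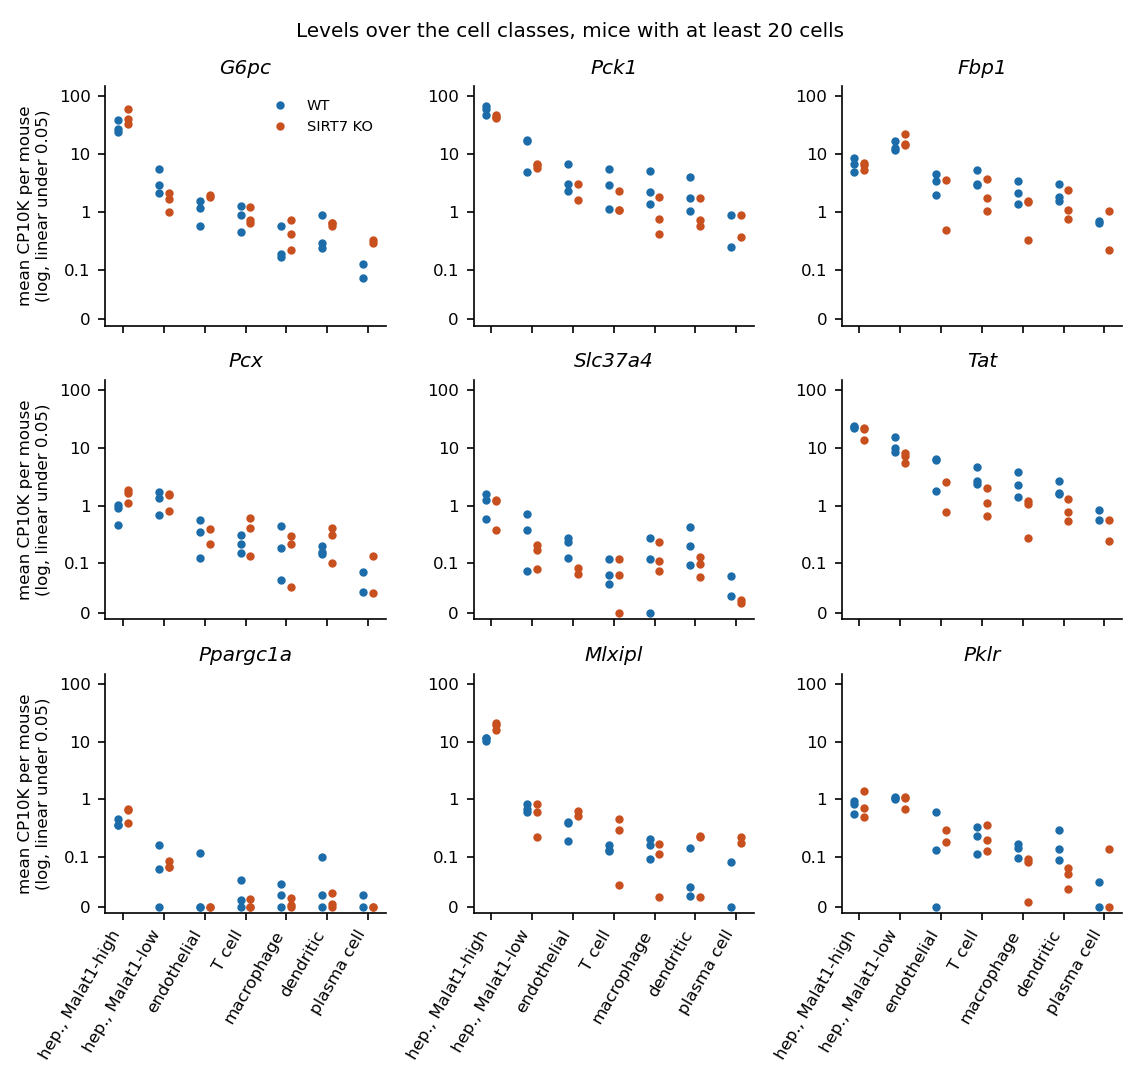
Mean CP10K per mouse of each of the 9 genes (log axis, linear under 0.05) in the Malat1-high and Malat1-low hepatocyte-like clusters and 5 other cell classes, for mice with at least 20 cells in the class; blue points are WT mice and orange points SIRT7 KO mice. G6pc and Mlxipl stand highest in the Malat1-high cluster, at 23.8 to 60.3 and 10.4 to 21.2 CP10K, and Fbp1 and Pklr reach both hepatocyte-like clusters.

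The 9 genes divided within the hepatocyte-like cells. They and the other listed glucose genes, 99 in all, were left out of the clustering, and the comparison of the clusters is a description with no test. Mlxipl was 14 to 70.3 times higher in the Malat1-high than in the Malat1-low cells of the same mouse. For G6pc the ratio was 4.33 to 41 and for Pck1 2.7 to 12.6. Slc37a4 was 2.18 to 7.95 times, Tat 1.49 to 3.92 times and, in the 5 mice with a count in both clusters, Ppargc1a 2.83 to 10.1 times higher. Tat encodes tyrosine aminotransferase, a classical glucocorticoid-induced enzyme of the fasted liver. G6pc, Pck1, Slc37a4, Tat and Mlxipl were higher in the Malat1-high cells of every mouse. For Ppargc1a the order in WT mouse 3 could not be read: its Malat1-high cells were at 0.356 CP10K, from 3 UMIs, and its 54 Malat1-low cells held no UMI, which allows up to 0.365 CP10K. Slc37a4 was at 0.0726 CP10K in the same Malat1-low cells, under that limit. Its ratio of 7.95, that of WT mouse 3, therefore rests on few molecules.

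The other 3 genes did not follow. Fbp1, fructose-1,6-bisphosphatase, was lower in the Malat1-high cells of all 6 mice, at 0.317 to 0.524 of the Malat1-low level. Pcx and Pklr, the liver pyruvate kinase, were each higher in Malat1-high cells in 2 of 6 mice, with ratios of 0.579 to 1.99 and 0.468 to 1.31. Genes of glucose production stood on both sides, G6pc and Pck1 with the Malat1-high and Fbp1 with the Malat1-low cells.

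For Mlxipl, the share of cells with a UMI was compared at equal depth. With every cell thinned to 500 UMIs, it was found in 39.1% to 63.5% of Malat1-high cells, 1.85% to 3.32% of Malat1-low cells and 0% to 1.1% of macrophage-like cells. Without thinning the shares were 69.6% to 98.2%, 4.69% to 12.7% and 1.19% to 4.35%, at median depths of 935 to 3823, 1019.5 to 1960.5 and 2100 to 6493.5 UMIs. Within the Malat1-high cells, the thinned share for Mlxipl was 39.6%, 42.2% and 39.1% in the WT mice and 63.5%, 50% and 50.9% in the SIRT7 KO mice, without overlap. How many of all genes separate by this measure was not computed.

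**Figure D2:**
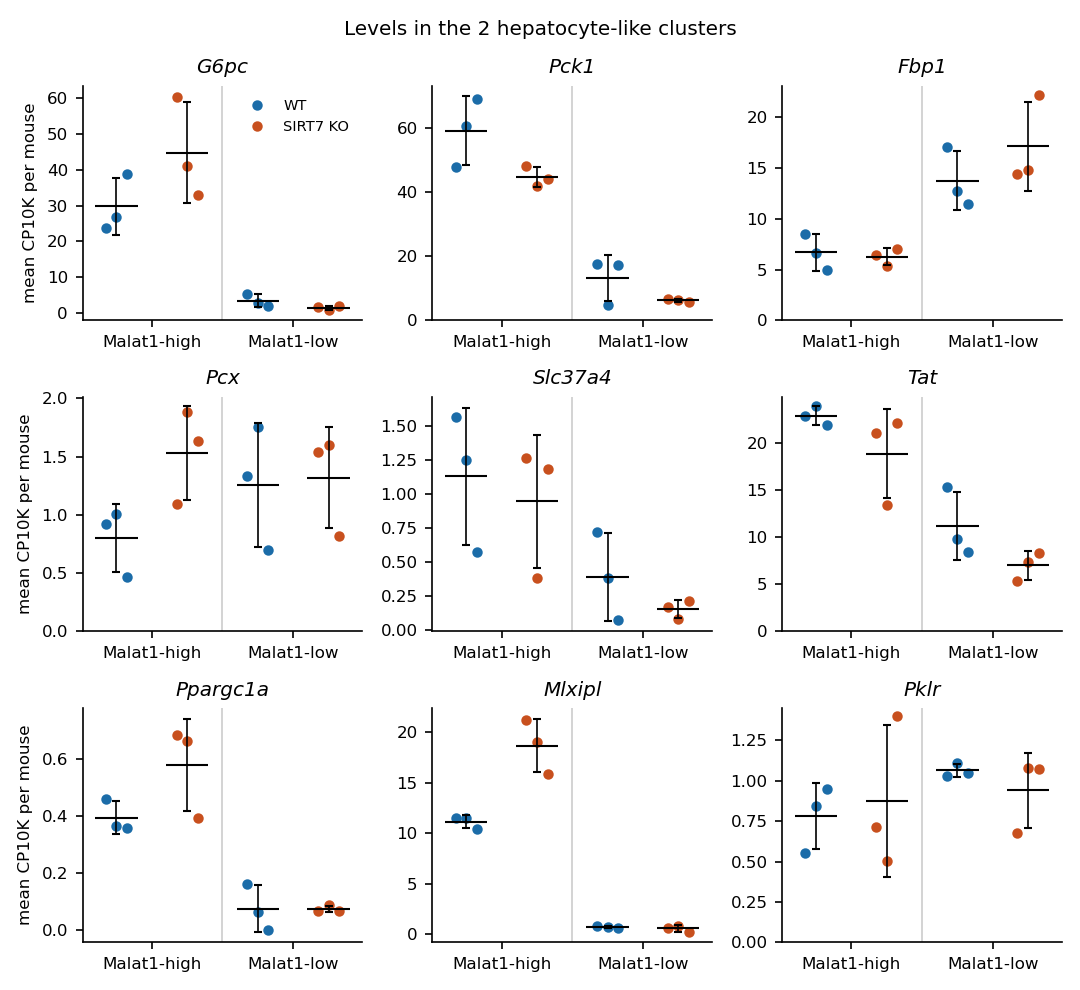
Mean CP10K per mouse of each gene in the Malat1-high and Malat1-low hepatocyte-like cells; points are mice (blue WT, orange SIRT7 KO, 3 each), horizontal lines are means and bars are SD over 3 mice. Mlxipl and Pcx in Malat1-high cells, and G6pc and Tat in Malat1-low cells, are the panels in which the genotypes do not overlap.

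Whether loss of SIRT7 moved these genes was asked first over all hepatocyte-like cells. None of the 9 genes passed the test (limma on log2(mean CP10K + 0.05), adjusted p under 0.05), against 0.112% of 9846 genes (11 genes). None had an unadjusted p under 0.05 and none passed with limma voom on summed UMIs. In none did the 3 SIRT7 KO mice lie outside the range of the 3 WT mice, as happened for 12.8% of all genes. With 3 against 3 mice the smallest two-sided exact permutation p is 0.1, and all p-values measure only the spread between these mice.

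Mlxipl had the largest difference of the 9. Its levels were 5.11, 2.84 and 5.12 CP10K in the WT mice and 9.55, 4.10 and 12.9 CP10K in the SIRT7 KO mice. SIRT7 KO mouse 2 lay inside the WT range, and the other KO mice lay above it. The fitted difference was 0.91 on the log2 scale (SE 0.49, limma adjusted p = 0.760).

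G6pc was at 12.8, 7.62 and 18.9 CP10K in the WT mice and at 27.2, 8.14 and 27.0 CP10K in the SIRT7 KO mice, a fitted log2 difference of 0.56 (SE 0.55). The low mouse of each genotype, number 2, was also the mouse with the lowest Malat1-high share. Pck1 ran the other way without separating, at 29.7, 15.9 and 40.9 CP10K in WT and 24.7, 12.8 and 36.7 CP10K in SIRT7 KO mice (log2 difference -0.25, SE 0.53). Number 2 was again the lowest of each genotype.

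The remaining 6 genes had fitted log2 differences between -0.27 for Slc37a4 and 0.51 for Ppargc1a. Fbp1 was nearly level, at 13.7, 11.5 and 8.48 CP10K in WT and 10.9, 13.2 and 9.94 CP10K in SIRT7 KO mice, with a difference of 0.03 and an SE of 0.43. Pklr was at 0.841, 1.06 and 1.0 CP10K in WT and 0.692, 0.973 and 1.34 CP10K in SIRT7 KO mice (difference 0.01, SE 0.38). Differences of the size of these standard errors are not detectable with these mice.

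Within the Malat1-high cells, Mlxipl and Pcx were higher in every SIRT7 KO mouse than in any WT mouse, but neither passed the test. Of the 9 genes, 0 were called against 0.245% of 10210 genes, 2 had an unadjusted p under 0.05 (Mlxipl and Pcx), and 0 were called by limma voom. Of all 10210 genes, 740 higher and 266 lower had an unadjusted p under 0.05. The 2 of 9 genes without overlap compare with 16.5% of all genes (12.5% higher in SIRT7 KO). Mlxipl was at 11.5, 11.5 and 10.4 CP10K in the WT mice and at 21.2, 19.0 and 15.9 CP10K in the SIRT7 KO mice. This was a ratio of means of 1.67 and a fitted log2 difference of 0.73 (SE 0.34, limma adjusted p = 0.493), and the exact permutation p was 0.1, the smallest that 3 against 3 mice can give.

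Pcx was at 0.924, 1.01 and 0.466 CP10K in the WT mice and 1.09, 1.88 and 1.63 CP10K in the SIRT7 KO mice, so that the gap between the groups was small beside their spread. The fitted difference was 0.93 (SE 0.41, limma adjusted p = 0.462). Pyruvate carboxylase makes the oxaloacetate from which Pck1 starts, and Pck1 itself was at 47.8, 60.6 and 68.9 CP10K in WT and 48.0, 41.9 and 43.9 CP10K in SIRT7 KO mice (-0.39, SE 0.34). SIRT7 KO mouse 1 and WT mouse 1 were at the same level, so the groups met.

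G6pc was at 23.8, 26.7 and 38.7 CP10K in WT and 60.3, 40.9 and 32.9 CP10K in SIRT7 KO mice in these cells, where SIRT7 KO mouse 3 fell inside the WT range (0.57, SE 0.36). Tat was at 22.8, 23.9 and 21.9 CP10K in WT and 21.0, 13.4 and 22.1 CP10K in SIRT7 KO mice (-0.31, SE 0.35). The other 4 genes, Fbp1, Slc37a4, Ppargc1a and Pklr, had fitted differences of -0.30 to 0.48 with SEs of 0.36 to 0.48, and overlapped.

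In the Malat1-low cells G6pc and Tat were lower in every SIRT7 KO mouse than in any WT mouse, and neither passed the test. Of the 9 genes, 0 were called against 0.468% of 8554 genes, 2 had an unadjusted p under 0.05 (G6pc and Tat), and the 2 without overlap compare with 16.6% of all genes (8.79% lower in SIRT7 KO). At an unadjusted p under 0.05 there were 338 higher and 575 lower of all 8554 genes. G6pc was at 5.50, 2.89 and 2.11 CP10K in the WT mice and 1.69, 0.998 and 2.09 CP10K in the SIRT7 KO mice. WT mouse 3 and SIRT7 KO mouse 3 were almost equal, with 15 and 21 UMIs behind the values. The fitted difference was -1.06 (SE 0.36, limma adjusted p = 0.256). With limma voom on summed UMIs it was -1.30 and passed (adjusted p = 0.0444), as did Slc37a4 (-1.71, adjusted p = 0.0390), in a fit that called 440 of 8579 genes.

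Tat was at 15.3, 9.80 and 8.41 CP10K in WT and 5.35, 7.34 and 8.26 CP10K in SIRT7 KO mice, again with both mice numbered 3 close together (-0.65, SE 0.26, limma adjusted p = 0.348). Pck1 was at 17.7, 4.82 and 17.1 CP10K in WT and 6.68, 6.47 and 5.82 CP10K in SIRT7 KO mice. Here WT mouse 2 lay below all SIRT7 KO mice and the other WT mice above them: the log2 difference was -0.84 (SE 0.48, limma adjusted p = 0.576), and without that mouse it was -1.46 and passed (adjusted p = 0.00406), in a fit that called 23 of 8437 genes. With each mouse left out in turn, the Pck1 difference ran from -1.46 to -0.52, and it passed only without WT mouse 2. Slc37a4 was at 0.719, 0.380 and 0.0726 CP10K in WT and 0.169, 0.0791 and 0.212 CP10K in SIRT7 KO mice (-0.82, SE 0.63).

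The fitted genotype difference of G6pc was thus 0.57 in one cluster and -1.06 in the other, and that of Mlxipl 0.73 and -0.47 (SE 0.44). The difference between the clusters was tested directly, as the genotype effect on the within-mouse ratio. It was 1.63 for G6pc (SE 0.47, limma adjusted p = 0.230) and 1.20 for Mlxipl (SE 0.39, limma adjusted p = 0.263). None of the 9 genes was called, against 0.151% of 9910 genes (15 genes), and these 2 had an unadjusted p under 0.05. How many of all genes reached that unadjusted p is not given here. The within-mouse ratio of G6pc was 4.33, 9.21 and 18.3 in WT and 35.7, 41 and 15.7 in SIRT7 KO mice, with an overlap by WT mouse 3. For Mlxipl it was 14, 16.8 and 17 in WT and 35.4, 22.6 and 70.3 in SIRT7 KO mice, without overlap. The share of all genes without overlap in this ratio was not computed. The Malat1-low side of the Mlxipl ratio rested on few molecules, 177 UMIs over all 6 mice, with a lowest level of 0.226 CP10K.

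**Figure D3:**
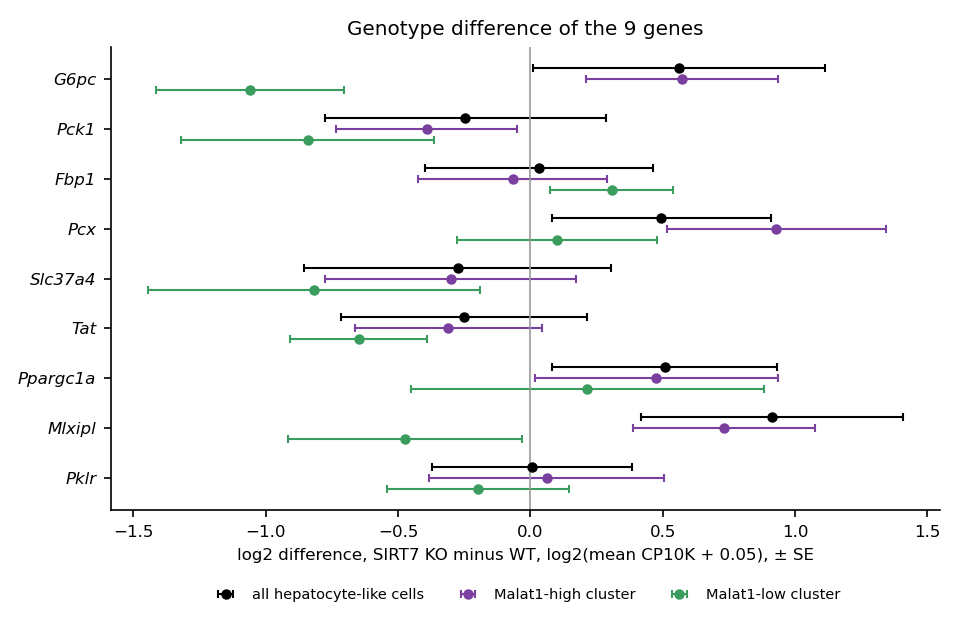
Fitted log2 difference, SIRT7 KO minus WT, of each gene on the log2(mean CP10K + 0.05) scale in all hepatocyte-like cells (black), the Malat1-high cluster (purple) and the Malat1-low cluster (green); bars are SE of the limma fit over 3 WT and 3 SIRT7 KO mice. The green point of G6pc lies at -1.06 and its black and purple points at 0.56 and 0.57.

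Several properties of the libraries differed between mice in the same cells, some of them by genotype. In Malat1-high cells the nuclear RNA Neat1 was at 57.9, 42.2 and 34.0 CP10K in WT and 112, 119 and 69.6 CP10K in SIRT7 KO mice, without overlap. The sum of the 14 listed immediate-early genes, which respond within minutes to stress and handling, was 86.2, 47.1 and 57.0 CP10K in WT and 25.4, 16.0 and 12.6 CP10K in SIRT7 KO mice. Median depth overlapped between the genotypes, at 2411, 2778.5 and 1381 UMIs in WT and 1350, 935 and 3823 UMIs in SIRT7 KO mice. In SIRT7 KO mouse 1, 9.5% of the Malat1-high cells scored as doublets. In that mouse, hepatocyte-like cells held summed neutrophil markers at 7.6 CP10K and macrophage markers at 5.36 CP10K, against at most 1.55 and 2.47 CP10K in the other mice. The part of these in the genotype differences of the 9 genes was not tested.

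Position along the lobule was scored from 13 portal and 13 central landmark genes, and the hepatocyte-like cells of each mouse were cut into tertiles. Landmarks made the score and are no result, and 498 and 408 of the 2949 cells lay within 0.1 of the central and portal cut. Of the 9 genes, 0 passed the test of portal minus central (limma, 6 mice), against 0.345% of 9854 genes, and 0 had an unadjusted p under 0.05. The tertiles were not matched for cluster: the Malat1-high share was 75.5% in the portal and 28.3% in the central tertile of SIRT7 KO mouse 1, 95.5% and 68.8% in SIRT7 KO mouse 3, but 33.3% and 52.9% in WT mouse 3.

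Pck1 was higher in the portal tertile in 5 of 6 mice. Its portal levels were 34.8, 19.6 and 34.1 CP10K in WT and 41.4, 14.9 and 48.2 CP10K in SIRT7 KO mice, against central levels of 29.2, 14.9 and 46.7 and of 16.4, 12.5 and 28.5 CP10K. WT mouse 3 was the exception, and the mean log2 difference was 0.42 (SE 0.20, limma adjusted p = 0.945). Pcx (0.46, SE 0.27), Tat (0.32, SE 0.21) and Ppargc1a (0.45, SE 0.48) were each higher in the portal tertile in 5 mice, and G6pc (0.30, SE 0.24), Fbp1 (0.29, SE 0.20) and Slc37a4 (0.45, SE 0.32) in 4. Over all genes tested, 4976 of 9854 had a positive mean. Mlxipl (-0.10, SE 0.26) was higher in the portal tertile in 3 mice and Pklr (0.00, SE 0.29) in 1.

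Splitting the Malat1-high cells alone at the median score, an alternative added after the data were seen, removed the difference in cluster. Mlxipl was then lower on the portal side in 6 of 6 mice. Portal levels were 10.4, 11.3 and 9.75 CP10K in WT and 20.2, 14 and 14.8 CP10K in SIRT7 KO mice, and central levels 12.7, 11.8 and 11.1 and 22.1, 24.1 and 16.9 CP10K. The log2 difference was -0.27 (SE 0.11). Its exact sign-flip permutation p was 0.031, the smallest that 6 mice can give and 1 of 9 such tests, and its limma adjusted p was 0.840. A like sign in all 6 mice was found for 3.16% of 10210 genes, and limma called 0 of the 9 genes against 0.0686% of all genes, with 2 at an unadjusted p under 0.05 (Mlxipl and Fbp1). Of all 10210 genes, 165 with a positive and 226 with a negative difference reached that p.

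Fbp1 was higher on the portal side in 5 of 6 mice, from 5.48, 3.98 and 6.04 CP10K (central) to 7.37, 6.79 and 8.04 CP10K (portal) in SIRT7 KO mice 1 to 3, with WT mouse 3 the exception (0.37, SE 0.14, limma adjusted p = 0.840). Pck1 and G6pc differed by 0.08 (SE 0.07) and 0.13 (SE 0.06) here, against 0.42 and 0.30 between the tertiles with their unequal cluster shares. Between the tertiles of all hepatocyte-like cells, where none of the 9 genes had 1 sign in every mouse, 3.58% of all genes did.

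**Figure D4:**
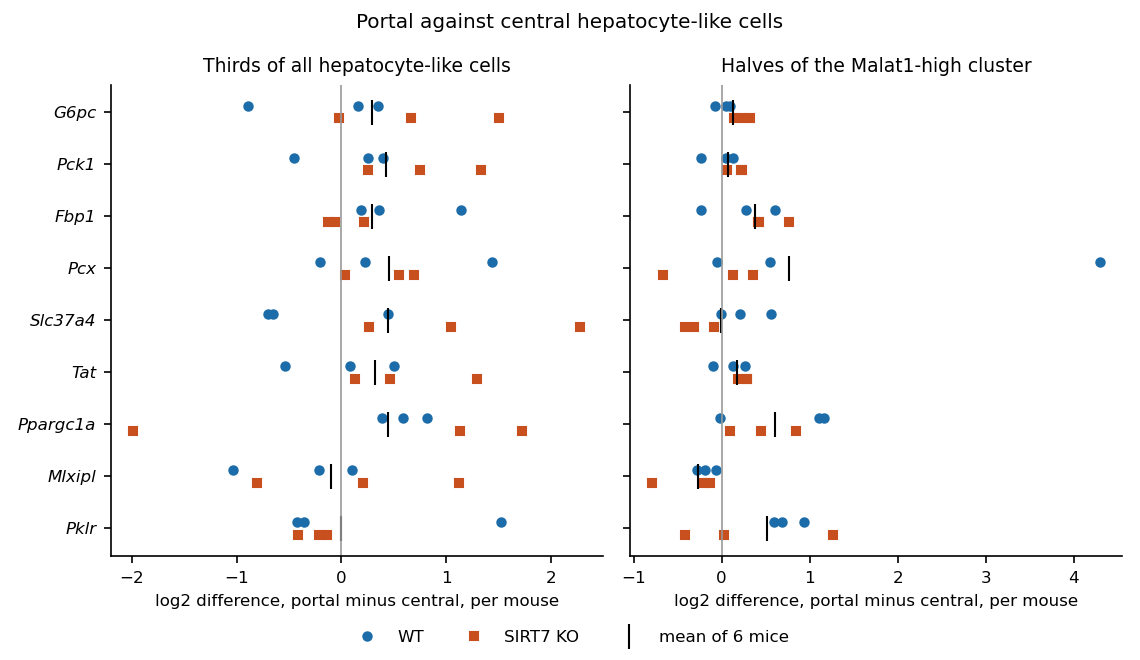
Difference portal minus central of log2(mean CP10K + 0.05) per mouse, for tertiles of all hepatocyte-like cells (left) and a median split of the Malat1-high cells (right); blue circles are WT mice, orange squares SIRT7 KO mice, black ticks the mean of 6 mice. On the right all Mlxipl points lie under 0, and the Pcx point at 4.30 is WT mouse 3, whose 23 central cells held no Pcx UMI.

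The genotype difference was not shown to depend on zone. Some landmarks behind the tertiles differed by genotype themselves. Of the 13 central landmarks, 1 was higher and 4 were lower in SIRT7 KO mice at an unadjusted p under 0.05. That was limma over all hepatocyte-like cells, with 0 called, where 498 higher and 208 lower of 9846 genes reached it. A tertile therefore need not be the same position in both genotypes. In the portal tertile 0 of 9 genes were called (0.0711% of 9849 genes), in the central tertile 0 of 9 (0.185% of 9748), and none had an unadjusted p under 0.05 in either. For the difference of the genotype effect between tertiles, limma called 0 of the 9 and 0 of all 9854 genes, with 1 of the 9, Slc37a4, at an unadjusted p under 0.05. Of all 9854 genes, 391 with a positive and 262 with a negative difference reached that p. Mlxipl was at 5.61, 3.36 and 3.64 CP10K in WT and 15.9, 3.30 and 14 CP10K in SIRT7 KO mice in the portal tertile. Without SIRT7 KO mouse 2, the low mouse, portal Mlxipl was the 1 gene of the 9 to pass, in a fit that called 104 of 9898 genes. With any other mouse left out, none of the 9 passed in the portal tertile.

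The other genes of glucose metabolism were read from lists of glycolysis, gluconeogenesis, glycogen, glucose entry, hormone control and ChREBP targets. The lists were also chosen with earlier results of these data known, so a lean of a list is a description and no test. Over all hepatocyte-like cells none of these lists held a called gene in either direction. The 12 tested ChREBP targets, among them genes of fat synthesis and fructose use, all had a positive difference, the smallest 0.01 for Tkfc. Their median was 0.85, and 4 had an unadjusted p under 0.05 (3 of the 13 listed are also in another list). Over all 9846 genes 6130 were positive, the median was 0.15, and 498 higher and 208 lower genes had an unadjusted p under 0.05. In Malat1-high cells 8 of 12 ChREBP targets were positive, 6 of them with an unadjusted p under 0.05 and 0 called, and the median was 0.89 against 0.17 for all genes. There, 740 higher and 266 lower of 10210 genes had an unadjusted p under 0.05. In Malat1-low cells 10 of 12 were positive and the median was 0.75 against -0.10. Pklr, whose promoter held the carbohydrate response element, was not on this list. Its difference was 0.01 over all hepatocyte-like cells, 0.06 in Malat1-high and -0.20 in Malat1-low cells.

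The gluconeogenesis list showed no such lean: 10 of 16 tested genes were positive over all hepatocyte-like cells (median 0.04), 9 of 16 in Malat1-high cells (0.09) and 9 of 15 in Malat1-low cells (0.14). Of the glycolysis list 11 of 15, 10 of 17 and 10 of 14 genes were positive. The glycogen list gave 8 of 11, 6 of 10 and 5 of 11.

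In Malat1-low cells Gpt of the gluconeogenesis list was called. Gpt encodes alanine aminotransferase, which turns alanine into pyruvate for glucose production. It fell from 2.57, 2.53 and 2.23 CP10K in WT to 0.811, 0.937 and 0.592 CP10K in SIRT7 KO mice (log2 difference -1.61, SE 0.32, limma adjusted p = 0.0175). The groups were well apart, but the call was lost without WT mouse 2 (adjusted p = 0.0919) or SIRT7 KO mouse 1 (0.0531).

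In Malat1-high cells no glucose gene was called, and the listed genes past the threshold were 5 immediate-early genes. Junb, Ier2, Fos, Btg2 and Egr1 fell by 3.56, 2.92, 4.23, 2.56 and 3.10 on the log2 scale (limma adjusted p 0.000698 to 0.0422). Junb was at 9.39, 4.25 and 5.91 CP10K in WT and 1.09, 0.426 and 0.225 CP10K in SIRT7 KO mice. Of the glucose and ChREBP lists, the genes nearest to the threshold, named after their values were seen, were Gcgr, the glucagon receptor, and Fgf21, a fasting hormone and ChREBP target. Gcgr was at 7.12, 7.71 and 9.46 CP10K in WT and 25.3, 25.0 and 20.6 CP10K in SIRT7 KO mice (1.54, limma adjusted p = 0.0581), and Fgf21 at 0.154, 0.0855 and 0.0744 and at 0.667, 0.545 and 0.883 CP10K (2.29, limma adjusted p = 0.0816). Both were separated without overlap, and neither passed. The WT levels of Fgf21 of 0.0855 and 0.0744 CP10K lay near the pseudocount added before the log. The lower of them came from Malat1-high cells with 78061 UMIs in all, so the WT side of the Fgf21 difference rests on few molecules.

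Over all hepatocyte-like cells the smallest p-values of the lists belonged to Fos (-2.79, limma adjusted p = 0.0884), Junb (-2.40, 0.106) and Egr1 (-2.49, 0.106). The portal tertile gave Junb (adjusted p = 0.0876), Egr1 (0.226) and Ier2 (0.465) in this place, whereas in the central tertile Fos passed (0.0287). Zone itself had called genes in the gluconeogenesis list. Sds, serine dehydratase, was higher in the portal tertile by 3.58 (SE 0.28, limma adjusted p = 0.000124), with 12.8, 1.97 and 3.84 CP10K portal and 3.68, 0.577 and 0.369 CP10K central in the WT mice. Sdsl, its relative, was higher by 2.38 (limma adjusted p = 0.0444), a call that was lost without WT mouse 2 or any 1 of the SIRT7 KO mice. Across the median split of the Malat1-high cells Sds (3.03, adjusted p = 0.0158) and Egr1 (-1.54, 0.0093) were called. For the genotype effect between tertiles, Sds, Pfkfb3 and Gapdh had the smallest p-values, at 2.71, -1.87 and -1.34 (limma adjusted p = 0.659 for each).

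Outside hepatocytes none of the 9 genes was called by genotype. The background was 0.201% of genes in macrophage-like, 0.12% in T-cell-like, 0.041% in dendritic-like, 0.197% in endothelial-like and 0.0779% in plasma-cell-like cells. Ppargc1a was under the filter in each class, and plasma-cell-like cells, with 6 of the 9 genes tested, rested on 2 mice per genotype. In endothelial-like cells SIRT7 KO mouse 3, with 8 cells, was left out, so 5 mice remained. At an unadjusted p under 0.05 there were 2 of the 9 genes in macrophage-like, T-cell-like, dendritic-like and plasma-cell-like cells each and 1 in endothelial-like cells. Of all genes, 378 higher and 660 lower of 9946 reached it in macrophage-like and 281 and 422 of 10014 in T-cell-like cells. In dendritic-like cells the counts were 188 and 384 of 9745, and in endothelial-like cells 292 and 518 of 10656. Plasma-cell-like cells had 358 and 141 of 7699. Without overlap, the SIRT7 KO mice were lower for Tat and Pklr in macrophage-like and dendritic-like cells and for Tat in T-cell-like cells, where 17%, 11% and 11.6% of all genes had no overlap. In endothelial-like cells G6pc and Mlxipl were higher and Slc37a4 lower (23.2% of all genes), and in plasma-cell-like cells G6pc and Mlxipl were higher and Tat lower (36.6%), as was Slc37a4, which was under the filter there. Few molecules lay behind these: 109, 31 and 15 UMIs of G6pc, Mlxipl and Slc37a4 over all endothelial-like sets. Over the plasma-cell-like sets there were 42, 29, 71 and 6 UMIs of G6pc, Mlxipl, Tat and Slc37a4.

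Tat, with 898 UMIs in macrophage-like cells, was counted better than Pklr, with 69 there and 30 in dendritic-like cells. Pklr was at 0.00669 to 0.167 CP10K in macrophage-like cells, around the pseudocount of 0.05. In macrophage-like cells Tat was at 3.74, 2.23 and 1.42 CP10K in WT and 1.05, 0.275 and 1.18 CP10K in SIRT7 KO mice, and the limma adjusted p was 0.310. The albumin gene Alb, which macrophages lack, was at 25, 17.6 and 10.2 CP10K in WT and 12.2, 2.6 and 23.5 CP10K in SIRT7 KO mice in the same cells, with overlap. Alb is 1 gene, and the zone landmark genes leaned down in these cells as Tat did. Of the portal landmarks 2 of 12 tested were positive (median log2 difference -1.33), and of the central landmarks 1 of 10 (-0.89). The median of all genes was -0.03. The part of free hepatocyte RNA in the Tat values was not tested. Of the listed pathway genes, Slc25a13, the mitochondrial aspartate and glutamate carrier, came nearest to a call, in endothelial-like cells (-2.07, limma adjusted p = 0.0702).

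The genes whose levels most resembled those of each of the 9 were sought over 18 points, the 3 tertiles of the 6 mice, which share libraries and depth. These points also differ in their Malat1-high share. The measure was Pearson's r of log2(mean CP10K + 0.05) among at least 3229 candidates. G6pc was most like Vegfa (0.93), Pck1 most like Errfi1 (0.95) and Slc38a2 (0.93), and Tat most like Vmp1 (0.94). Fbp1 was most like Selenbp1 (0.91), Pcx most like Smim14 (0.93) and Slc37a4 most like Tm4sf4 (0.91). The values for Ppargc1a and Pklr were lower, at 0.75 with Tle1 and 0.81 with Dars.

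For Mlxipl the 3 nearest genes were AC149090.1, Neat1 and Mprip, each at 0.93. Neat1 is the nuclear RNA that did not overlap between the genotypes in Malat1-high cells. Among the 9 genes themselves, G6pc and Mlxipl were at 0.89, Pck1 and Tat at 0.83, G6pc and Pck1 at 0.80, and Fbp1 and Pcx at 0.66, while Fbp1 was at -0.52 with both G6pc and Pck1. G6pc, Mlxipl, Pck1 and Tat were at 0.89, 0.88, 0.77 and 0.69 with Malat1, and Fbp1, Pcx and Pklr at -0.29, -0.06 and -0.05. G6pc, Mlxipl, Pck1 and Tat had the highest r with Malat1 among the 9 and were all higher in the Malat1-high cells of every mouse. Because the tertiles differ in their Malat1-high share, these r values are not independent of the cluster ratios.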

How the data were processed

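The authors aligned reads of 10x Chromium 3′ libraries to mm10 with Cell Ranger 6.0.0, kept cells with at least 500 genes and little mitochondrial RNA, and deposited 1 table of 11610 cells, the number the study's methods give, as the natural log of (UMIs per 10000 + 1). All 12961041 values above 0 gave whole UMIs within 0.02. The range of UMI totals over mice is in the report, and intervals and limits cover counting error only. The 9 genes and all lists were chosen with earlier results of these data known.

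Cells were clustered with scanpy 1.11.5 and leidenalg 0.10.2 (1000 variable genes, 50 components, 3 neighbors per mouse, resolution 0.35, 10 clusters) without 99 glucose genes, and named from marker lists. The automatic doublet caller marked 46 cells (0.396%) and did not work. Marking the top scores at 0.8% per 1000 cells gave 321 cells (2.76%), which were kept and left out in an alternative. No genome coordinates were converted, and promoters came from RefSeq GRCm38.p6.

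Mice were compared with limma 3.58.1 (R 4.3.3; trend and robust) on log2(mean CP10K + 0.05), for genes with a mean of at least 0.05 and mice with at least 20 cells, p-values adjusted by Benjamini and Hochberg's method across each whole fit, threshold 0.05, all two-sided; the scripts were tested on simulated data. Zones were compared within mice. Exact permutation tests used scipy 1.17.1. Text names the 9 genes, at most 5 called genes of the lists per fit and direction (else the 3 smallest p) and the 3 most alike genes; 1 listed gene is not reported here. Alternatives were another pseudocount (0.2), no filter, summed UMIs, limma voom, cells with at least 1000 UMIs, doublets left out, a replicate block, other zone limits and each mouse left out.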

Additional observations from a re-analysis of the deposited data

Results flagged for a closer look

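Of the 9 zone differences over 6 mice, 2 had 1 mouse far from the others, by the gap to the nearest mouse as a share of the whole range, and chance marks about 1 in 20 groups. For Ppargc1a the share was 0.64: SIRT7 KO mouse 2 was at -1.99 (log2, portal minus central), with no UMI in 93 portal cells, and the other mice were above 0. For Pklr it was 0.853: WT mouse 3 was at 1.53 and the other mice were under 0.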

How the results depend on the processing

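Under 495 alternatives for the 9 genes in 4 fits, 50 turned the fitted sign and 3 passed the threshold; no gene of the 9 was called in the main setting. In Malat1-high cells, summed UMIs gave Fbp1 0.037 and Slc37a4 0.093, voom Fbp1 0.024 and Slc37a4 0.055, and cells with at least 1000 UMIs Fbp1 0.045. In Malat1-low cells, summed UMIs gave Pcx -0.058, voom Pcx -0.11 and Ppargc1a -0.28, and at least 1000 UMIs Pcx -0.075, Ppargc1a -0.016 and Mlxipl 0.0095. The Malat1-high cluster alone gave Fbp1 -0.067, and the Malat1-low cluster alone G6pc -1.06, Mlxipl -0.47, Pklr -0.20 and Junb 0.014. For zone, a median split gave Pklr 0.10, leaving out urea cycle landmarks Mlxipl 0.067 and Pklr 0.019, summed UMIs Mlxipl 0.074 and Pklr 0.027, at least 1000 UMIs Mlxipl 0.028 and Pklr 0.13, tertiles within clusters G6pc -0.013, and the median split of the Malat1-high cells Slc37a4 -0.0086 and Pklr 0.51. Leaving out each mouse gave, over all hepatocyte-like cells, Pck1 -0.62 to 0.16, Fbp1 -0.15 to 0.19, Slc37a4 -0.79 to 0.47, Tat -0.56 to 0.037 and Pklr -0.22 to 0.23; in Malat1-high cells, Fbp1 -0.27 to 0.12, Slc37a4 -0.71 to 0.22 and Pklr -0.32 to 0.37; in Malat1-low cells, Pcx -0.26 to 0.40, Ppargc1a -0.33 to 0.71, Mlxipl -0.83 to 0.016 and Pklr -0.30 to 0.013; for zone, Mlxipl -0.34 to 0.14 and Pklr -0.32 to 0.17. The cause was not tested.

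The count of called genes among the 9 was 0 in every main setting and rose in 9 of 139 alternatives. Voom gave 2 in Malat1-low cells. The replicate block gave 1 in macrophage-like and 1 in endothelial-like cells. Leaving out each mouse gave 0 to 1 in Malat1-low cells (without WT mouse 2), the portal tertile (without SIRT7 KO mouse 2), dendritic-like and endothelial-like cells (without SIRT7 KO mouse 1), 0 to 2 in T-cell-like cells (without SIRT7 KO mouse 1) and 0 to 2 in plasma-cell-like cells (without WT mouse 3, which leaves 1 WT mouse, assumed to vary like the others). Over all genes the counts moved more: over all hepatocyte-like cells 11 became 3 to 29, in Malat1-high cells 25 became 209 with voom and 7 to 92 without single mice, and in Malat1-low cells 40 became 440 with voom and 23 to 147. Mice of like number did not pair (r -0.05, 0.15 and 0.03 over all hepatocyte-like cells, with negative values in both clusters); the replicate block changed the calls to 18, 72 and 2 genes in these 3 fits, and that of Gpt was lost (adjusted p = 0.306). For plasma-cell-like cells no block could be fitted. Depth limits Ppargc1a, Slc37a4, Pcx and Pklr most.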
